A study of Mus musculus with 4 samples.

Results

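The genes of complement, the plasma and cell-surface defence cascade, were followed across 4 expression arrays of mouse melan-a melanocytes, an immortal pigment cell line. The 9 members were C1ra, Masp1, C4b, C3, Cfb, Cfd, Serping1, Cd55 and Cd59a, chosen by name, with every probe set that the 2016 platform annotation assigns to them, out of 18193 genes and 45101 probe sets in all. They had 16 probe sets. Of these, 13 were assigned to 1 member alone, which covered 6 genes, and 3 were shared with a close relative. C4b had only a set shared with C4a. No probe set is paired with C3 or Cfd in the annotation used here, so these 2 members were not analysed here. Total RNA came from 4 cultures, 1 array each. They were Hmhi-MYC-TA cells given EGF, Hmhi-Miz1 kd cells given EGF (Hmhi-pS-Miz1 in another label), Hmhi cells given EGF, and Hmhi cells starved without it. All 4 were kept in starvation medium with 10% dialyzed FCS for 14 days, and EGF was given at 100 ng/ml for those 14 days. Before that, the protocol kept the cells with 200 nM TPA and 12 nM cholera toxin. All 4 cultures share the Hmhi background. The labels spell out neither Hmhi nor MYC-TA, and do not say whether a line is 1 clone.

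Complement is started by recognition proteins that activate paired serine proteases. C1r and C1s do so in the classical pathway and the MASP proteases in the lectin pathway. Among these, C1s and the protease encoded by Masp2 cleave C4 and C2, and the resulting convertase cleaves C3. Factor B and factor D amplify C3 cleavage in the alternative pathway. Host cells hold the cascade in check with the secreted C1 inhibitor and with membrane regulators such as CD55 and CD59. The liver makes most plasma complement, and many other cell types transcribe some of its genes.

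Each condition had a single array and no replicate. A difference below is therefore one between 2 arrays, and no test of the conditions could be made. Levels are log2 signals as deposited, and differences run from the array named second to the array named first. Every array had a median of 6.66, and a level below it is called dim, since background limits the size of differences there. Different probe sets of the same gene gave a technical error. For the difference of 2 arrays, their SD was 0.41 for MYC-TA minus labelled Miz1 kd and 0.25 for MYC-TA minus Hmhi EGF. It was 0.22 for labelled Miz1 kd minus Hmhi EGF and 0.32 for Hmhi EGF minus Hmhi starved. The transcript of Zbtb17, which encodes Miz-1, showed no decrease under the Miz1 kd label. The brighter of its sets read 8.71 in MYC-TA, 9.08 in labelled Miz1 kd, 8.72 in Hmhi EGF and 8.73 in Hmhi starved, so directions for that array are those of the array as labelled. Myc read 9.78 in MYC-TA, 10.79 in labelled Miz1 kd, 10.60 in Hmhi EGF and 10.64 in Hmhi starved. Of 12 melanocyte markers, 9 to 10 were at or above the median per array. Sox10 lay between 12.96 and 13.36 and Tyrp1 between 13.05 and 14.09, while Tyr and Ednrb were dim on all 4 arrays. Some markers differed between arrays, among the 10 at or above the median in the brighter array. In Hmhi EGF minus Hmhi starved, 4 were at least 2-fold higher and 1 lower. In MYC-TA minus Hmhi EGF, 0 were higher and 1 lower (Slc45a2, -2.70). In labelled Miz1 kd minus Hmhi EGF, 0 were higher and 1 lower (Dct, -2.07). The shares over all genes are given with the members below.

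C1ra encodes C1r, the protease that activates C1s in the first classical pathway complex. Its own probe set read 8.03 in MYC-TA, 8.61 in labelled Miz1 kd, 8.75 in Hmhi EGF and 9.06 in Hmhi starved. MYC-TA was the lowest array and Hmhi starved the highest, 1.03 apart on the log2 scale. No pair among the 4 comparisons was 2-fold apart. The difference of MYC-TA minus Hmhi EGF was -0.72, and that of labelled Miz1 kd minus Hmhi EGF was -0.14, which is within the technical SD of 0.22. A second set, shared with the neighbouring copy C1rb, read 6.90 in MYC-TA, 7.08 in labelled Miz1 kd, 7.29 in Hmhi EGF and 8.001 in Hmhi starved. It put the 4 arrays in the same order, and reads of C1ra and C1rb cannot be told apart on it. The RefSeq windows at the 2 gene starts (GRCm38.p6, 250 bases before to 50 after) are shown for the likeness of the copies. They do not show which bases the probe set reads. That of C1ra is chr6:124512371-124512670 and that of C1rb chr6:124570180-124570479, both on the plus strand. Capitals mark the stretch in which they align, with 139 of 150 alignment columns identical (92.7%). The stretch is bases 152 to 300 of the C1ra window and 1 to 149 of the C1rb window. It thus spans the annotated start of C1ra but ends before that of C1rb.
C1ra: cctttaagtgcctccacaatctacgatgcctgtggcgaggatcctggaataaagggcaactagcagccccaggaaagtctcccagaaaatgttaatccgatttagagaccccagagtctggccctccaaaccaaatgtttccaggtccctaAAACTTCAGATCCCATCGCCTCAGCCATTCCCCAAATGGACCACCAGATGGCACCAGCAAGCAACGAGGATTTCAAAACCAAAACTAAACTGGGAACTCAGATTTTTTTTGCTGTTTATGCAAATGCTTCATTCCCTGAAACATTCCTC
C1rb: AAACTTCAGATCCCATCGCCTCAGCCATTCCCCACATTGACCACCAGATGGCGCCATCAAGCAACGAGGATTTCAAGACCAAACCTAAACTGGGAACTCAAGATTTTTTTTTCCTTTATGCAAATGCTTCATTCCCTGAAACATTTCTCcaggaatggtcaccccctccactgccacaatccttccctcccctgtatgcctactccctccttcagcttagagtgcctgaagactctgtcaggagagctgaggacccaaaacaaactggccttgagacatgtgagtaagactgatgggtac

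C1s1 encodes C1s, the partner that C1r activates, and lies next to C1ra in the RefSeq gene order. Its 1 probe set read 9.13 in MYC-TA, 10.62 in labelled Miz1 kd, 10.47 in Hmhi EGF and 10.18 in Hmhi starved. MYC-TA was below the other 3 arrays, with log2 differences of -1.49 against labelled Miz1 kd and -1.34 against Hmhi EGF, while those 3 lay close together. The set is of a type that can read several transcripts. The motifs below were searched on both strands of the promoter windows: GAS (TTCNNNGAA), C/EBP (TTGCNNAA), AP-1 (TGANTCA), E-box (CACGTG), ISRE and the NF-kB site. Of 32851 RefSeq windows of this length, 8.3% hold the GAS letters, 10.8% C/EBP, 7.81% AP-1, 7.15% the E-box, 3.44% ISRE and 8.46% the NF-kB site. The C1ra window holds 1 GAS and 1 C/EBP match, at bases 33 to 41 and 17 to 24 after the gene start. The C1s1 window, chr6:124542310-124542609 on the minus strand, holds 1 C/EBP match, marked in capitals. These are matches of letters and not shown to be sites.
C1s1: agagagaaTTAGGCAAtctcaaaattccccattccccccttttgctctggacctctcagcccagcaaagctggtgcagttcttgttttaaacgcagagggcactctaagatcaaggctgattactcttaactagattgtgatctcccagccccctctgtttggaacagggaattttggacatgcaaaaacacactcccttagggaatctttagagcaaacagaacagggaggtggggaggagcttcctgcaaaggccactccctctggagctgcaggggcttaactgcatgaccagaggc

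Masp1 encodes the lectin pathway proteases MASP-1 and MASP-3, which arise from 1 gene by alternative splicing. On its 2 brightest sets it was far lower in the array labelled Miz1 kd than in the other 3. Its brightest set, 1425985_s_at, read 11.21 in MYC-TA, 6.09 in labelled Miz1 kd, 10.36 in Hmhi EGF and 9.41 in Hmhi starved. The next, 1438602_s_at, read 10.92 in MYC-TA, 6.98 in labelled Miz1 kd, 9.92 in Hmhi EGF and 9.07 in Hmhi starved. Both put MYC-TA highest, followed by Hmhi EGF, Hmhi starved and labelled Miz1 kd. The set 1438603_x_at kept that order at lower levels, with 8.81 in MYC-TA, 6.38 in labelled Miz1 kd, 7.56 in Hmhi EGF and 7.15 in Hmhi starved. The remaining 2 sets were dim on all 4 arrays. One of them, 1455346_at, still had its highest level, 6.47, in MYC-TA and its lowest, 3.88, in labelled Miz1 kd, against 4.98 in Hmhi EGF and 5.01 in Hmhi starved. The other, 1419677_at, stayed between 4.52 and 4.87.

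The size of the Masp1 difference depended on the set read. For labelled Miz1 kd minus Hmhi EGF the 3 brighter sets gave log2 differences of -4.27, -2.94 and -1.17, a mean of -2.79 ± 1.55 (SD between 3 probe sets of the same 2 arrays). The first of these is 19.3-fold. Read from that set alone, Masp1 was the gene with the 6th lowest difference among the 11394 genes compared. For MYC-TA minus labelled Miz1 kd the same sets gave 5.12, 3.93 and 2.43, a mean of 3.83 ± 1.35 (SD, 3 probe sets), and the first put Masp1 4th from the top among 11613 genes. In labelled Miz1 kd 2 of the 3 sets were dim, so background limits these sizes. MYC-TA minus Hmhi EGF straddled the 2-fold threshold of 1 on the log2 scale, with 0.85, 0.999 and 1.25 on the 3 sets, a mean of 1.03 ± 0.20. Hmhi EGF minus Hmhi starved gave 0.95, 0.85 and 0.40, a mean of 0.73 ± 0.29, and was under 2-fold on each of the 3. Against Hmhi starved, the brightest set had log2 differences of 1.80 in MYC-TA and -3.32 in labelled Miz1 kd. The next set gave 1.84 and -2.09. The set 1438603_x_at gave 1.65 and -0.77, the latter under 2-fold. Which splice product each set reads was not analysed here.

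**Figure D1:**
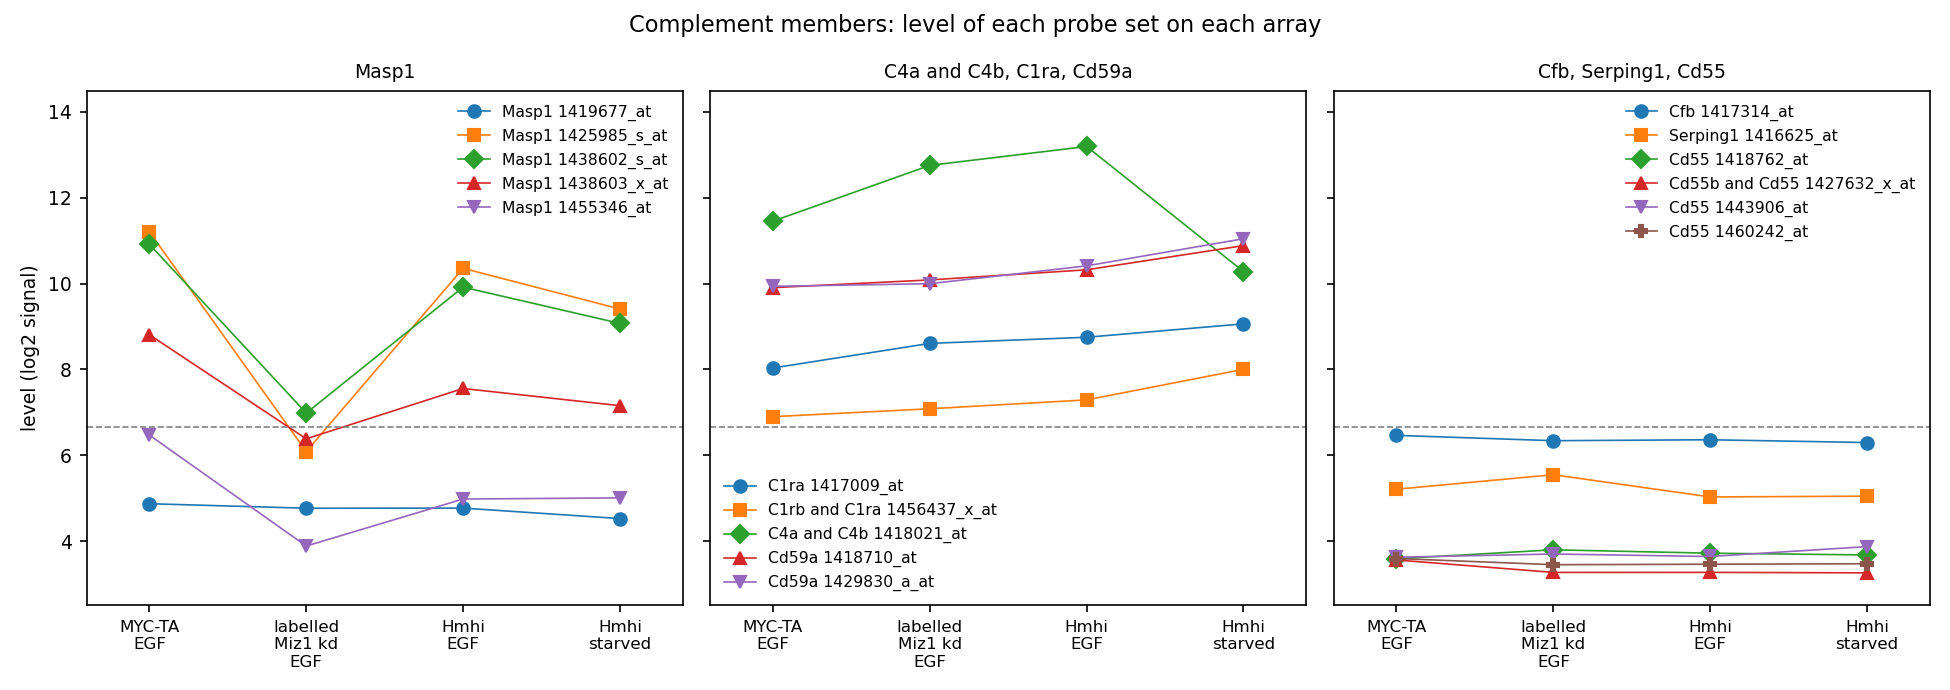
Level of each member probe set (log2 signal) on the 4 arrays, in 3 panels. Lines join the values of 1 set, and the dashed line is the array median of 6.66. The 3 brighter Masp1 sets drop in the array labelled Miz1 kd, the set shared by C4a and C4b is lowest in Hmhi starved, and C1ra and Cd59a are highest there, while the sets of Cfb, Serping1 and Cd55 lie under the dashed line.

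C4 is the component cleaved by C1s and by the protease encoded by Masp2 on the way to the C3 convertase. The single set shared by C4b and its duplicate C4a read 11.45 in MYC-TA, 12.76 in labelled Miz1 kd, 13.20 in Hmhi EGF and 10.28 in Hmhi starved. The 3 EGF arrays were above Hmhi starved, with Hmhi EGF highest and MYC-TA nearest to the starved array. Hmhi EGF minus Hmhi starved was 2.91 on the log2 scale, or 7.54-fold. MYC-TA minus Hmhi EGF was -1.74 and MYC-TA minus labelled Miz1 kd was -1.30, while MYC-TA was still 1.17 above Hmhi starved. Labelled Miz1 kd minus Hmhi EGF was -0.44, under 2-fold. The set cannot tell C4b, the component of the classical and lectin pathways, from C4a, known in mice as the sex-limited protein.

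Cfb encodes factor B, the protease of the alternative pathway convertase. It was dim on all 4 arrays, with 6.46 in MYC-TA, 6.34 in labelled Miz1 kd, 6.36 in Hmhi EGF and 6.30 in Hmhi starved. These 4 levels spanned 0.17, less than the technical SD of each of the 4 comparisons. C2, which takes the place of factor B in the classical pathway convertase, read 7.26 in MYC-TA, 7.47 in labelled Miz1 kd, 7.31 in Hmhi EGF and 7.35 in Hmhi starved. Properdin (Cfp), which stabilises the alternative pathway convertase, read 8.90 in MYC-TA, 9.67 in labelled Miz1 kd, 9.13 in Hmhi EGF and 8.48 in Hmhi starved, with no comparison 2-fold apart.

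Among the inhibitors, Cd59a was bright. Cd59a encodes the membrane protein that blocks the terminal pore of complement. Its set 1429830_a_at read 9.94 in MYC-TA, 10.00 in labelled Miz1 kd, 10.41 in Hmhi EGF and 11.05 in Hmhi starved. Its set 1418710_at read 9.91 in MYC-TA, 10.09 in labelled Miz1 kd, 10.32 in Hmhi EGF and 10.89 in Hmhi starved. Both sets gave the order that C1ra also had, with MYC-TA lowest and Hmhi starved highest. However, MYC-TA minus labelled Miz1 kd was only -0.06 and -0.18 on them, within the technical SD of 0.41, so these arrays are not ordered. Hmhi EGF minus Hmhi starved averaged -0.60 ± 0.05 and MYC-TA minus Hmhi EGF -0.45 ± 0.04 (SD between 2 probe sets), each under 2-fold. The span from MYC-TA to Hmhi starved was 0.98 on one set and 1.11 on the other. The Cd59a start window, chr2:104095551-104095850 on the plus strand, is shown as that of the bright inhibitor. It holds 1 match of the ISRE, marked in capitals, and no other of the motifs searched.
Cd59a: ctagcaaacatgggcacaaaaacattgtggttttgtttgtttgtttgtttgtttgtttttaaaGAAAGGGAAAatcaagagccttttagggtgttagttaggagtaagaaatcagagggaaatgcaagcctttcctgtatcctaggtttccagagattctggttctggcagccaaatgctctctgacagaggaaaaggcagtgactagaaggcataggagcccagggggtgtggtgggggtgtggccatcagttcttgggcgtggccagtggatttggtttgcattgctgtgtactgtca

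Serping1 encodes the C1 inhibitor, which shuts off C1r, C1s and the MASP proteases. It was dim on all 4 arrays, at 5.21 in MYC-TA, 5.55 in labelled Miz1 kd, 5.03 in Hmhi EGF and 5.05 in Hmhi starved. Labelled Miz1 kd was the highest, by 0.52 over Hmhi EGF, within levels where background limits any difference. Cd55 encodes decay-accelerating factor, which takes convertases apart. Its 3 own sets read between 3.45 and 3.87 over the 4 arrays, and the set shared with Cd55b between 3.26 and 3.56. Cr1l, which encodes the rodent membrane regulator Crry, was bright on 1 of 3 sets, at 10.06 in MYC-TA, 9.84 in labelled Miz1 kd, 10.00 in Hmhi EGF and 10.26 in Hmhi starved. A dimmer Cr1l set read 6.06 in MYC-TA and 7.11 in labelled Miz1 kd, a difference of -1.05 that the brightest set, at 0.22, did not share.

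The members were set against all genes by both criteria, a level at or above the median in the brighter array and a 2-fold difference. C1ra, Masp1 and Cd59a passed on level in every comparison, and Cfb, Serping1 and Cd55 in none. Each count of members below is therefore out of 3, too few to rank against the shares over all genes. For MYC-TA minus labelled Miz1 kd, 1 member (Masp1) was at least 2-fold higher, where 6.72% of 11613 genes were, and 0 were 2-fold lower, where 4.26% were. For MYC-TA minus Hmhi EGF, 0 members were called higher and 0 lower, against 1.3% and 1.65% of 11534 genes. For labelled Miz1 kd minus Hmhi EGF, 0 were called higher and 1 (Masp1) lower, against 0.29% and 2.5% of 11394 genes. For Hmhi EGF minus Hmhi starved, 0 were called higher and 0 lower, against 7.98% and 4.96% of 11461 genes. The set of C4a and C4b is outside these counts, which use sets of 1 gene. It was over 2-fold lower in MYC-TA than in either other EGF array, and over 2-fold higher in Hmhi EGF against Hmhi starved. The comparisons share arrays, 3 of the 4 using Hmhi EGF, so they are not independent of each other.

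**Figure D2:**
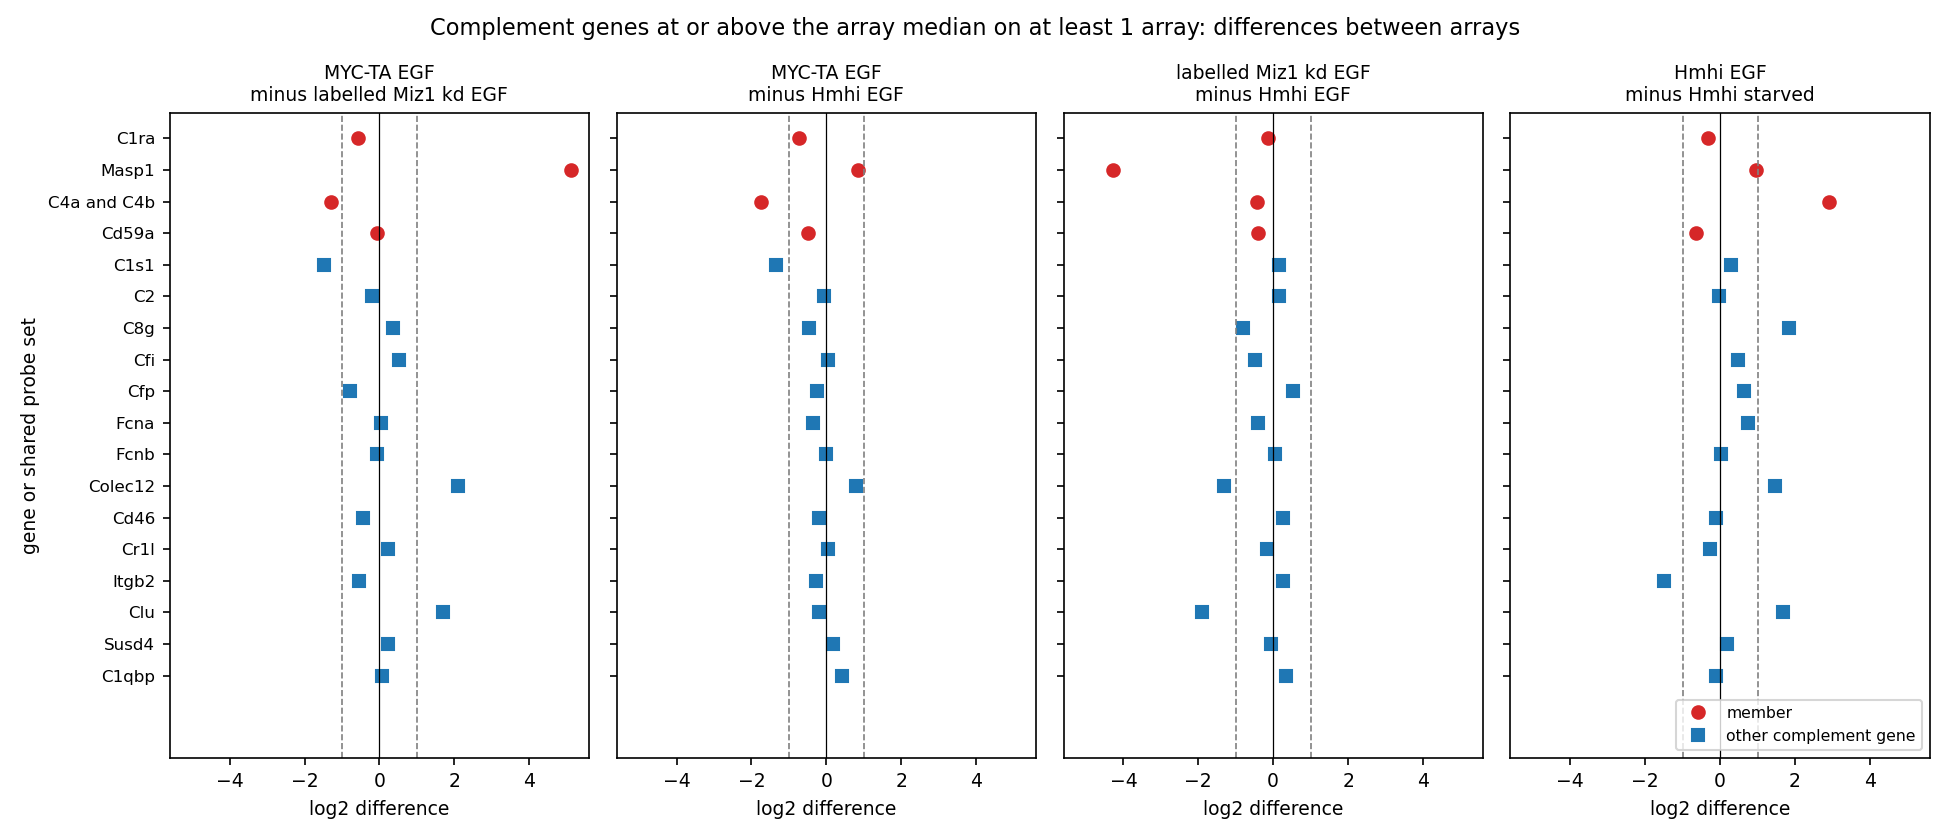
Log2 differences in the 4 comparisons for the members (red circles) and other complement genes (blue squares) at or above the median on at least 1 array, with dashed lines at 2-fold. Masp1 lies at -4.27 for labelled Miz1 kd minus Hmhi EGF and at 5.12 for MYC-TA minus labelled Miz1 kd, and the set of C4a and C4b lies at 2.91 for Hmhi EGF minus Hmhi starved.

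Of 58 other complement components, receptors, regulators and closely linked genes listed, 47 had a probe set of their own, and 33 of these were dim on all 4 arrays. The dim ones included C1qa, C1qb and C1qc, which encode the recognition subunits of C1, and the mannose-binding lectins Mbl1 and Mbl2. They also included Masp2, the lectin pathway protease that cleaves C4, the terminal components C6, C8a, C8b, C9 and Hc (C5), and the receptors C3ar1 and C5ar1. Of the 14 others, 5 were 2-fold apart in at least 1 comparison: C1s1, described above, Clu, Colec12, C8g and Itgb2. In MYC-TA minus labelled Miz1 kd, 2 of 13 past the level filter were higher and 1 lower, against 6.72% and 4.26% of all genes. Their median difference was 0.065, against 0.039 over all genes. In MYC-TA minus Hmhi EGF, 0 of 13 were higher and 1 lower, against 1.3% and 1.65%, with a median of -0.048 against 0.045. In labelled Miz1 kd minus Hmhi EGF, 0 of 14 were higher and 2 lower, against 0.29% and 2.5%, with a median of -0.0085 against 0.018. In Hmhi EGF minus Hmhi starved, 3 of 14 were higher and 1 lower, against 7.98% and 4.96%, with a median of 0.238 against 0.006. Counts out of 13 or 14 are too small to rank against these shares.

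Clu encodes clusterin, a secreted chaperone that inhibits assembly of the terminal pore. Its brightest set read 9.33 in MYC-TA, 7.63 in labelled Miz1 kd, 9.52 in Hmhi EGF and 7.85 in Hmhi starved. MYC-TA and Hmhi EGF were high, labelled Miz1 kd and Hmhi starved low, and the 4 sets shared this split. Labelled Miz1 kd minus Hmhi EGF ran from -4.31 to -1.28 over those sets, and Hmhi EGF minus Hmhi starved from 1.16 to 2.26. The sets at -4.31 and -3.37 were dim in labelled Miz1 kd, at 4.25 and 6.20, so background limits these sizes. The first was also dim in Hmhi starved, at 6.29, and gave the 2.26. The sets at or above the median on all 4 arrays gave -1.89 and -1.28 for labelled Miz1 kd minus Hmhi EGF. Colec12, a membrane collectin and scavenger receptor, read 8.25 in MYC-TA, 6.15 in labelled Miz1 kd, 7.46 in Hmhi EGF and 6.0 in Hmhi starved. It was likewise high in MYC-TA and Hmhi EGF and dim in the other 2 arrays. C8g, the gene of the gamma chain of C8, read 7.91 in MYC-TA, 7.54 in labelled Miz1 kd, 8.36 in Hmhi EGF and 6.51 in Hmhi starved, and so was higher in each EGF array than in the starved one. Itgb2, the beta chain of complement receptors 3 and 4, read 6.15 in MYC-TA, 6.71 in labelled Miz1 kd, 6.44 in Hmhi EGF and 7.94 in Hmhi starved. It was highest in Hmhi starved, with a log2 difference of -1.503 for Hmhi EGF minus Hmhi starved, while Itgam and Itgax, its partner chains, were dim on all 4 arrays.

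**Figure D3:**
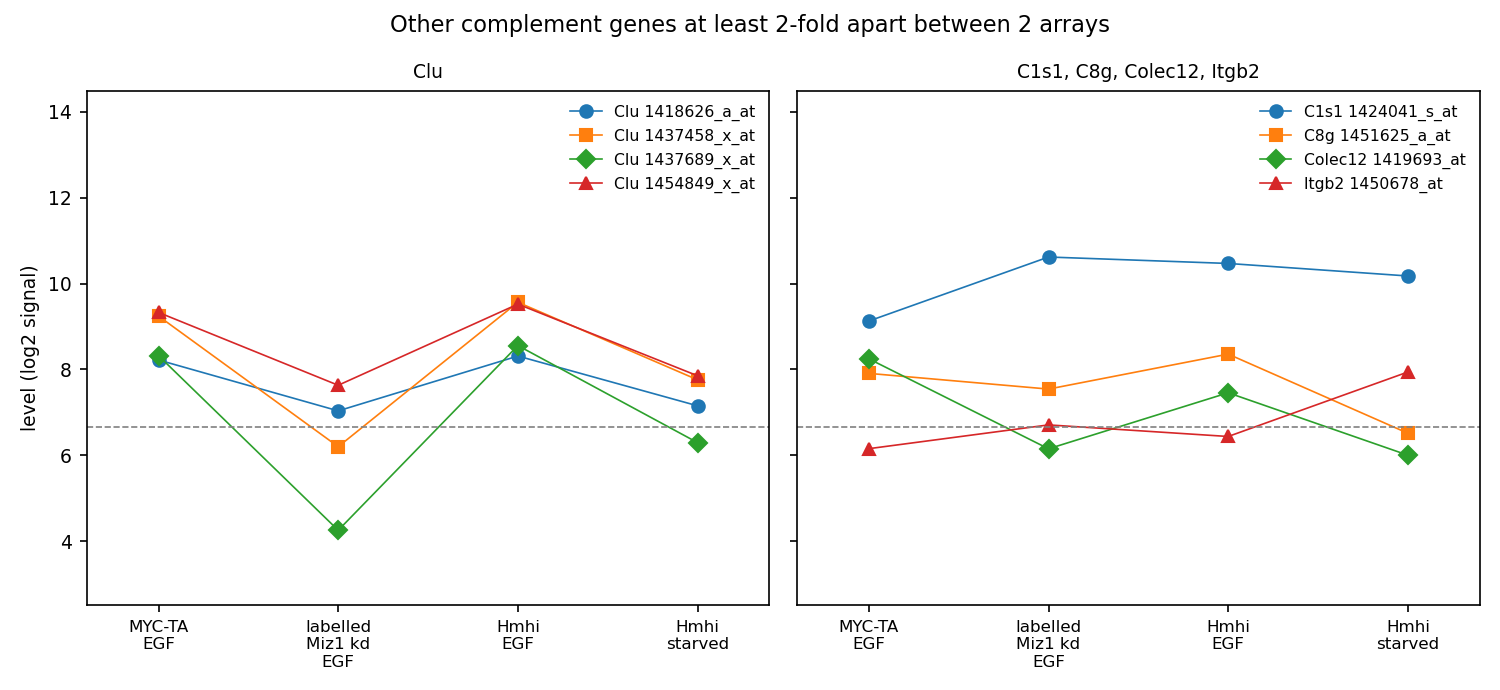
Level (log2 signal) on the 4 arrays of the probe sets of Clu, in the left panel, and of C1s1, C8g, Colec12 and Itgb2, in the right. Lines join the values of 1 set, and the dashed line is the array median of 6.66. The 4 Clu sets are low in labelled Miz1 kd and in Hmhi starved, and C1s1 is lowest in MYC-TA at 9.13.

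Masp1 was the member for which like profiles were sought, as the only one with a set of its own that was 2-fold apart in a comparison. Likeness was the Euclidean distance between log2 profiles over the 4 arrays after each gene's mean was subtracted, among 11788 genes outside the complement lists. Masp1 was read from its brightest set alone. Its other sets differed less between arrays, so the ranking holds for that set and not for every set of the gene. The nearest was Mfsd13a, at a distance of 0.13, with 9.77 in MYC-TA, 4.596 in labelled Miz1 kd, 8.74 in Hmhi EGF and 7.88 in Hmhi starved. Fads2, which encodes a fatty acid desaturase, followed at 0.49, and Slc49a4 at 0.78. In labelled Miz1 kd the Masp1 set (6.09), Mfsd13a, Fads2 (5.71) and Slc49a4 (4.16) were dim, so background limits the likeness on that array. A profile over 4 arrays holds few values, and near profiles only describe these arrays.

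**Figure D4:**
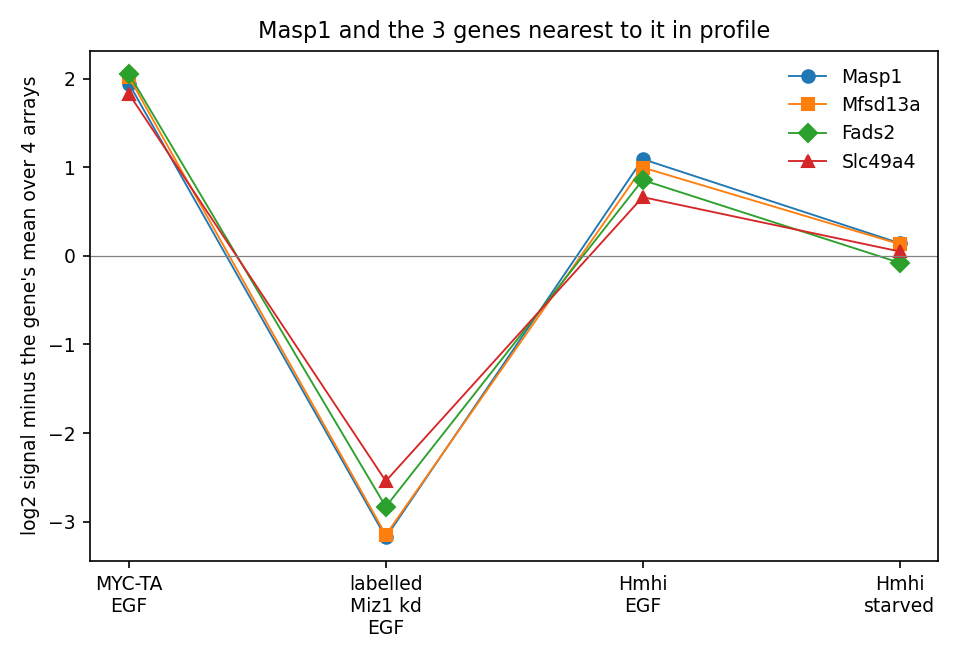
Log2 signal minus the gene's own mean over the 4 arrays, for Masp1 (brightest set) and the 3 genes nearest to it. The 4 genes are highest in MYC-TA and lowest in the array labelled Miz1 kd, and Mfsd13a nearly overlies Masp1 at a distance of 0.13.

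Other lists of genes were set beside the complement genes, and whether any of them moved together was not tested. Of 13 interferon response genes on the array, 9 were at least 2-fold higher in Hmhi EGF than when starved, with a median difference of 1.51. Over all genes, 7.98% were higher in that comparison and 4.96% lower. In labelled Miz1 kd minus Hmhi EGF, 8 of 13 were lower, against 2.5% of all genes, with a median of -1.04. In MYC-TA minus Hmhi EGF none was 2-fold apart, against 1.3% higher and 1.65% lower over all genes. The median there was -0.41, and all 13 were below 0. The set of C4a and C4b was also highest in Hmhi EGF, but its lowest EGF array was MYC-TA, whereas the interferon list had median levels of 9.70 in MYC-TA, 8.77 in labelled Miz1 kd and 10.26 in Hmhi EGF. The part of interferon response genes in the complement differences was not tested. Of 16 acute phase and NF-kB genes on the array, 12 were past the level filter in Hmhi EGF minus Hmhi starved. Of these 12, 1 was higher and 2 were lower, against 7.98% and 4.96% of all genes. The lone higher gene, Lcn2, was also the lone gene of this list lower in labelled Miz1 kd than in Hmhi EGF. Of 10 macrophage markers, 3 to 4 were at or above the median per array, with Lyz2 between 10.74 and 12.37, while Ptprc, Adgre1, Cd14, Aif1 and Tyrobp were dim on all 4 arrays. Of the 4 macrophage markers past the level filter in Hmhi EGF minus Hmhi starved, 1 was at least 2-fold higher and 1 lower. The shares over all genes were 7.98% and 4.96%, and the median difference of the 4 was 0.36. The higher one was Cd68, with 8.07 in Hmhi EGF against 6.55 in Hmhi starved, and the lower one Csf1r, with 6.74 in Hmhi EGF against 9.41 in Hmhi starved. In MYC-TA minus Hmhi EGF, 1 of 4 macrophage markers was lower (Lyz2, -1.63) and 0 higher, with a median of -0.099. In MYC-TA minus labelled Miz1 kd, 1 of 4 was lower (Lyz2, -1.15) and 0 higher, with a median of -0.18. The set of C4a and C4b and that of C1s1 were also over 2-fold lower in both. The part of macrophage markers in those differences was not tested. Of 8 fibroblast markers, 3 to 4 were at or above the median per array, and the list had medians of 7.26 in MYC-TA, 6.43 in labelled Miz1 kd, 6.81 in Hmhi EGF and 6.78 in Hmhi starved. Of the 4 fibroblast markers past the level filter in MYC-TA minus labelled Miz1 kd, 2 were at least 2-fold higher and none lower. Over all genes, 6.72% were higher and 4.26% lower. The differences were 3.43 for Col3a1, 2.12 for Dcn, 0.83 for Fbln1 and -0.31 for Pdgfra. In labelled Miz1 kd minus Hmhi EGF, the other comparison that called Masp1, 0 of 4 fibroblast markers were 2-fold apart, but 3 were below 0. The shares over all genes were 0.29% higher and 2.5% lower. Col3a1 was at -0.95, Dcn at -0.90, Fbln1 at -0.60 and Pdgfra at 0.03. Their median was -0.75, against 0.018 over all genes. In MYC-TA minus Hmhi EGF, 2 of 4 fibroblast markers were higher and 0 lower, against 1.3% and 1.65% of all genes. Col3a1 was at 2.48, Dcn at 1.22, Fbln1 at 0.22 and Pdgfra at -0.28, with a median of 0.72 against 0.045 over all genes. The part of fibroblast markers in the Masp1 difference was not tested. Adipocyte markers other than Cebpa were dim on all 4 arrays, as were 5 of 8 keratinocyte and 4 of 6 endothelial markers. In bulk RNA, a lower share of cells with a transcript and less of it per cell cannot be told apart.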

How the data were processed

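Total RNA of the 4 cultures had been labelled with biotin from 100 ng per sample, per the labels' protocols, and hybridised to 1 Affymetrix array each. As deposited, the values ran from 2.94 to 15.12 and were read as log2 signals. The method and log base are not given in the sources used here. The sorted columns differ by at most 0.004, so the authors' values had been made comparable, and a change shared by all genes would not show. The 2016 annotation gave 1 symbol for 34945 probe sets, several for 932 and none for 9160, and 64 were controls. Entrez identifiers matched RefSeq (GRCm38.p6) for 34741, which changed 0 symbols. Each gene was read from its brightest set on average. A comparison took genes whose brighter array reached the median of that array without control sets, and called them at 2-fold. No test was possible. The members and lists were chosen with earlier results of these data known, and all members were named, with other complement genes named where called or by role, and the 3 genes nearest in profile. Neighbouring genes and the probe sets of other complement genes were looked at after the values were seen. Alternatives were 3 scalings, 2 level filters and 3 choices of probe set. The number of arrays limits the precision. Python 3.11.15, pandas 2.3.3, numpy 2.4.6, statsmodels 0.14.6 and matplotlib 3.10.9 were used.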

Additional observations from a re-analysis of the deposited data

How the results depend on the processing

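No paired analysis was possible because the conditions have a single array each, so none could be left out either. Of 16 counts, 8 were 0 in the main setting and under every alternative. The deposited arrays already share one distribution, so a common median and quantile normalization could change little. Of the 48 remaining values, the 8 counts above 0 under the other 6 alternatives, 35 stayed within 1.5 times. With only plain _at sets or with the dimmest set, 0 members were called in either comparison that called Masp1, because its 3 brighter sets were then not used. The mean of its 5 sets gave 2.83 for MYC-TA minus labelled Miz1 kd, -1.90 for labelled Miz1 kd minus Hmhi EGF and 0.48 for Hmhi EGF minus Hmhi starved. Of the other complement genes, the 75th percentile filter called 1 higher (2 before) for MYC-TA minus labelled Miz1 kd and 1 lower (2 before) for labelled Miz1 kd minus Hmhi EGF. For Hmhi EGF minus Hmhi starved it called 1 higher (3 before) and 0 lower (1 before). Plain _at sets called 1 higher (2 before) and 0 lower (1 before) for MYC-TA minus labelled Miz1 kd, and 0 lower (1 before) for MYC-TA minus Hmhi EGF. They called 1 lower (2 before) for labelled Miz1 kd minus Hmhi EGF and 1 higher (3 before) for Hmhi EGF minus Hmhi starved. Both settings test fewer genes.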

Other observations

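Masp1 overlaps Rtp4 in the RefSeq gene spans, and the pair was looked at after the values were seen. Rtp4, an interferon-inducible chaperone of receptor transport, read 11.80 in MYC-TA, 10.23 in labelled Miz1 kd, 12.11 in Hmhi EGF and 9.69 in Hmhi starved. Labelled Miz1 kd minus Hmhi EGF was -1.88 for Rtp4 and -4.27 for the brightest set of Masp1, on the log2 scale. It differed from Masp1 in that Hmhi starved was its lowest array and Hmhi EGF its highest. St6gal1, on the other side of Masp1, read 12.14 in MYC-TA, 11.87 in labelled Miz1 kd, 12.45 in Hmhi EGF and 11.00 in Hmhi starved, and Sst was dim on all 4 arrays. Which strand or transcript the Masp1 sets match was not analysed here.

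Near C4b, Atf6b read 9.30 in MYC-TA, 8.24 in labelled Miz1 kd, 8.91 in Hmhi EGF and 8.39 in Hmhi starved. Cyp21a1 stayed between 7.75 and 7.95 and Stk19 between 9.07 and 9.30. None of the 3 had the difference of 2.91 that the set of C4a and C4b showed for Hmhi EGF minus Hmhi starved.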
